A study of Mus musculus with 4 samples.

Results

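Primary astrocyte cultures grown from the ventral mesencephalon, the ventral midbrain region that holds the dopaminergic neurons, were compared with cultures grown from the hippocampus. Both came from CD-1 mice, an outbred stock, at postnatal day 3, and each region gave 1 Affymetrix array, so sizes of difference are given and there is no replicate check and no test. The array carries 22690 probe sets, of which 20380 name 1 gene. These stand for 12393 genes, each read by the probe set that averaged highest on the log2 scale, and every one of them is a member of the comparison. The series holds 4 arrays, of which these are 2; the subventricular zone and olfactory bulb arrays serve here only as side values. Per the labels, dissociated tissue of both regions was plated in medium with 10% serum. Shaking at 200 rpm enriched the attached cells for astroglia before they were passaged and held as monolayers in that medium. Tissue of several littermates was pooled before culture. The labels name no treatment and no sorting step, so a culture may hold other adherent cells.

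Astrocytes take up glutamate and potassium, make and secrete cholesterol and lipoproteins, and feed neurons with lactate from glycogen. They arise from regional radial glia and keep part of the transcription factor code of the region they come from. In culture they also respond to interferons, cytokines and serum with strong transcriptional programmes, which differ from the genes that define the resting cell, and cultures of newborn brain commonly carry microglia and meningeal fibroblasts.

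The deposited values are signal intensities on a linear scale. A floor of 122.1, which is the median over all probe sets of all 4 arrays, replaced lower values, and a difference is the log2 signal of the mesencephalic culture minus that of the hippocampal culture. A gene was compared when it lay above the floor on at least 1 of the 2 arrays, and was called higher in a culture from a log2 difference of 1, which is 2-fold. A fold against a signal below the floor only bounds the difference from below and is written as at least that fold. A gene with 1 signal below the floor can count as within 2-fold, and the size of its difference is then a lower bound too. Signals of different genes come from different probes and are not set against each other.

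The 2% trimmed mean was 400 on both arrays, while the median signal was 117.5 on the mesencephalic and 136.8 on the hippocampal array. Probe sets above the floor numbered 11207 and 11835. All 18 hybridisation control probe sets, which report RNA added at the hybridisation step, were higher on the mesencephalic array, by 1.17-fold to 1.63-fold (median 1.44-fold). For Gapdh the control probe sets at the 3 prime end read 0.876 and 0.856 of those at the 5 prime end, and for beta-actin 1.49 and 1.27, mesencephalic array first. Brightly read genes leaned the same way as the added controls: among the 326 genes in the top 5% of mean signal, 257 were above 0 and the median difference was 0.31, against 0.01 after quantile normalization of the arrays. Xist, which coats the inactive X chromosome, was 18.3 in the mesencephalic and 606 in the hippocampal culture, and the Y-linked gene Eif2s3y was 252 and 271. Of the 6 sex-linked genes named on the array 3 were above the floor, and the Y-linked Kdm5d differed by -0.34; the part of the pups' sex in the results was not tested.

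Of the 12393 genes, 7690 were compared and 4703 were below the floor on both arrays. In the mesencephalic culture 541 genes were at least 2-fold higher, which is 7.04% of those compared, and in the hippocampal culture 753 were, which is 9.79%. These shares are the background against which every list below is read. Lower bounds made up 116 of the 541 and 314 of the 753. The median difference over all genes compared was -0.06. At 4-fold the counts were 147 and 214, at 8-fold 49 and 68, and at 16-fold 12 and 20. The scatter plot of the 2 arrays shows most genes along the line of equal signal, with called genes on both sides of it.

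**Figure D1:**
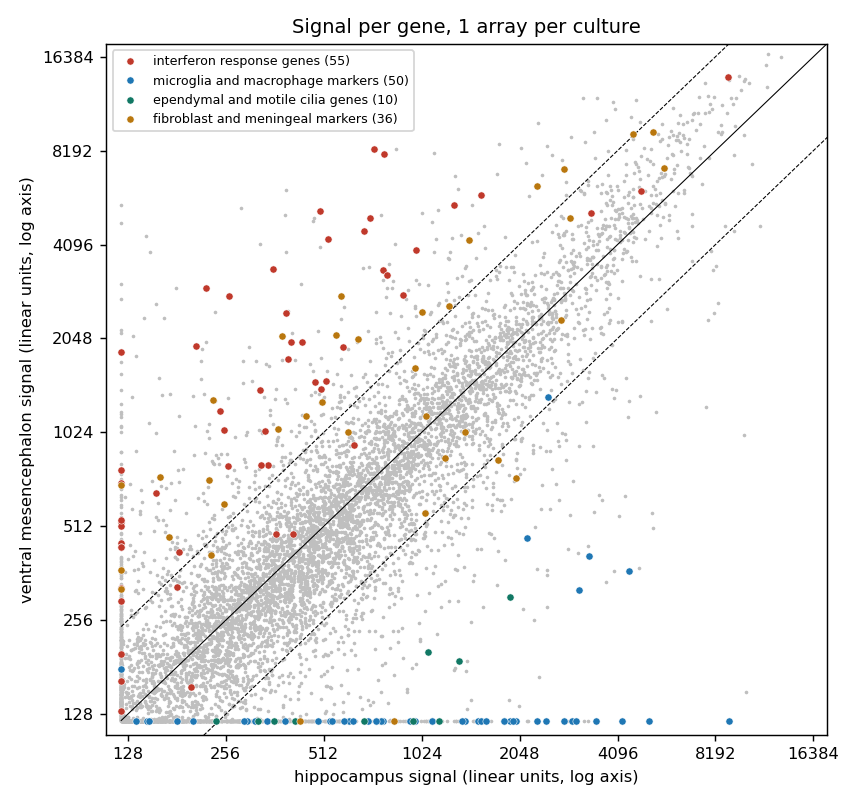
Signal of each of the 7690 genes compared in the hippocampal culture (horizontal, log axis) and in the mesencephalic culture (vertical, log axis), with signals below the floor of 122.1 drawn at the floor. The 541 genes at least 2-fold higher in the mesencephalic culture lie above the band and the 753 higher in the hippocampal culture below it; at high signals the cloud leans above the line of equal signal.

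Where a gene had more than 1 probe set, the others gave a measure of how well the array reads a difference. Among 2195 genes with a further probe set above the floor, the difference between probe sets had a median-based SD of 0.29 on the log2 scale, or 0.21 per probe set. This covers the reading of 1 RNA and not the spread between cultures. Of the 188 genes higher in the mesencephalic culture that had a further probe set above the floor, 186 lay on the same side by it, 128 of them at least 2-fold. In the hippocampal direction the numbers were 244 of 248 and 158. These counts take the further probe set with the highest mean. Over all further probe sets above the floor, H2-D1 was the 1 called gene with one at least 2-fold the other way. Of the 287 called genes named here, 281 stayed 2-fold on their side after quantile normalization and 254 with the mean over all probe sets of a gene, a mean that includes probe sets at the floor. Those that did not reach 2-fold by that mean, beside the ones given with their values further on, were Acvr1b, Aqp4, Axl, Cdh5, Col1a1, Cx3cl1, Egfr, Eng, Fabp4, Igf2, Itga5, Lama4, Lpl, Mcm2, Mmp2, Nes, Notch1, Pdgfra, S100b, Sema3e, Sema4d, Slc2a3, Slit2, Stmn2, Timp2, Timp3, Vcan, Vegfa and Vldlr.

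Set beside the other regions, the called genes did not divide in 1 way. Of the 541 genes higher in the mesencephalic culture, the subventricular zone signal lay nearer to the mesencephalic value for 249 and the olfactory bulb signal for 204. For 154 genes both lay nearer to the hippocampal value, and for 66 both lay nearer to the mesencephalic one. Of the 753 genes higher in the hippocampal culture, both lay nearer to the mesencephalic value for 268 and nearer to the hippocampal value for 84.

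The gene with the largest difference towards the mesencephalic culture was Il6, the pleiotropic inflammatory cytokine, at 5495 against 50.4 (at least 45-fold). Ccl5, a chemokine for T cells and monocytes, read 4803 against 83.7 (at least 39.3-fold, mesencephalic higher), and Cxcl11, an interferon-induced chemokine, 4355 against 145 (30-fold). Both secreted signals and matrix genes are thus found at the top. Smoc2, a matricellular calcium-binding protein, read 3874 against 149.8 (25.9-fold, mesencephalic higher), Fbln2, an elastic fibre and basement membrane protein, 2130.2 against 117 (at least 17.4-fold), and the collagenase Mmp13 2174 against 82.6 (at least 17.8-fold). The epidermal growth factor receptor ligand Ereg read 2738 against 21.9 (at least 22.4-fold, mesencephalic higher) and thrombomodulin, Thbd, an anticoagulant surface receptor, 5382 against 285 (18.9-fold). Of the same top 15, Crct1, a gene of the epidermal differentiation complex, read 3053 against 4.4 (at least 25-fold, mesencephalic higher), and the pantetheinase gene Vnn1 2644 against 156 (16.9-fold). The remaining 5, Nr4a1, Mmp3, Ntn1, Ptgs2 and Zbp1, are taken up with their lists.

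In the other direction lysozyme led: Lyz2 read 9016 against 82.3 (at least 73.8-fold) in the hippocampal against the mesencephalic culture and Lyz1 10172 against 150.4 (67.6-fold). These genes are near-identical copies, so their probe sets may read each other's RNA and the pair counts as 1 observation. Transthyretin, Ttr, the thyroid hormone carrier secreted by the choroid plexus, read 8959.7 against 1.0 (at least 73.4-fold, hippocampal higher). Csf1r, the receptor on which microglia depend, read 5099 against 90.9 (at least 41.8-fold, hippocampal higher). The macrophage genes Ctss, C1qa, Tyrobp, Cd68, Clec4d, Fcer1g, Lcp1 and Adgre1 filled 8 more of the top 15 places. In a culture read as a whole, fewer cells of a type and less RNA per cell cannot be told apart. The other 3 were not macrophage genes. Cnmd, which encodes the anti-angiogenic protein chondromodulin, read 3323 against 72.4 (at least 27.2-fold, hippocampal higher). Scg3, a secretory granule protein, read 3224 against 93.9 (at least 26.4-fold, hippocampal higher), and the neural membrane glycoprotein Gpm6a 2786 against 84.4 (at least 22.8-fold).

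Interferon response genes were higher in the mesencephalic culture. Of the 55 members named on the array, 44 were higher in the mesencephalic and 0 in the hippocampal culture, 11 lay within 2-fold and 0 were below the floor on both arrays. The median difference was 2.00, beside -0.06 over all genes compared, and the summed signal was 128938 against 37421. The fibroblast and meningeal markers lay on the same side with a summed signal of 82121 against 46308, and their part in the result was not tested. The nucleic acid sensor Zbp1 read 1857 against 77 (at least 15.2-fold). Iigp1, a GTPase that attacks vacuoles of intracellular parasites, read 2967 against 223 (13.3-fold). The RNA-binding antiviral proteins Ifit3 and Ifit1 read 8274 against 733 (11.3-fold) and 8007 against 783 (10.2-fold), and the lipid-modifying antiviral enzyme Rsad2 5230.1 against 498 (10.5-fold). The transcription factor Irf7, which amplifies type I interferon production, read 2810.5 against 261 (10.8-fold). Members of different antiviral roles stood on the same side: the de-ISGylase Usp18 (4278 against 527, 8.12-fold), the synthetase-like Oasl2 (4519 against 680.2, 6.64-fold), the RNA helicase Ifih1 (1996 against 406, 4.91-fold) and the tethering protein Bst2 (3272 against 803, 4.07-fold).

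Signalling genes of the pathway were read beside its targets. Stat2 read 295 against 96.1 (at least 2.41-fold, mesencephalic higher), Irf9, its partner in the interferon-stimulated transcription factor, 804 against 345 (2.33-fold), and Irf1 1992 against 439 (4.54-fold). The receptor genes lay within 2-fold: Ifnar1 differed by 0.11, Ifnar2 by 0.97, Ifngr1 by -0.20 and Ifngr2 by -0.20 on the log2 scale. Of the 11 members within 2-fold, Adar (0.85) and Ube2l6 (0.70) were the furthest above 0 and Irf2 (-0.35), a repressor of the pathway, was the only one below it. The subventricular zone signal was between those of the 2 cultures for Ifit1 (3388), Rsad2 (2331) and Irf7 (1714), while the olfactory bulb signal was near the hippocampal one for Ifit1 (796) and below it for Rsad2 (138) and Irf7 (133).

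**Figure D2:**
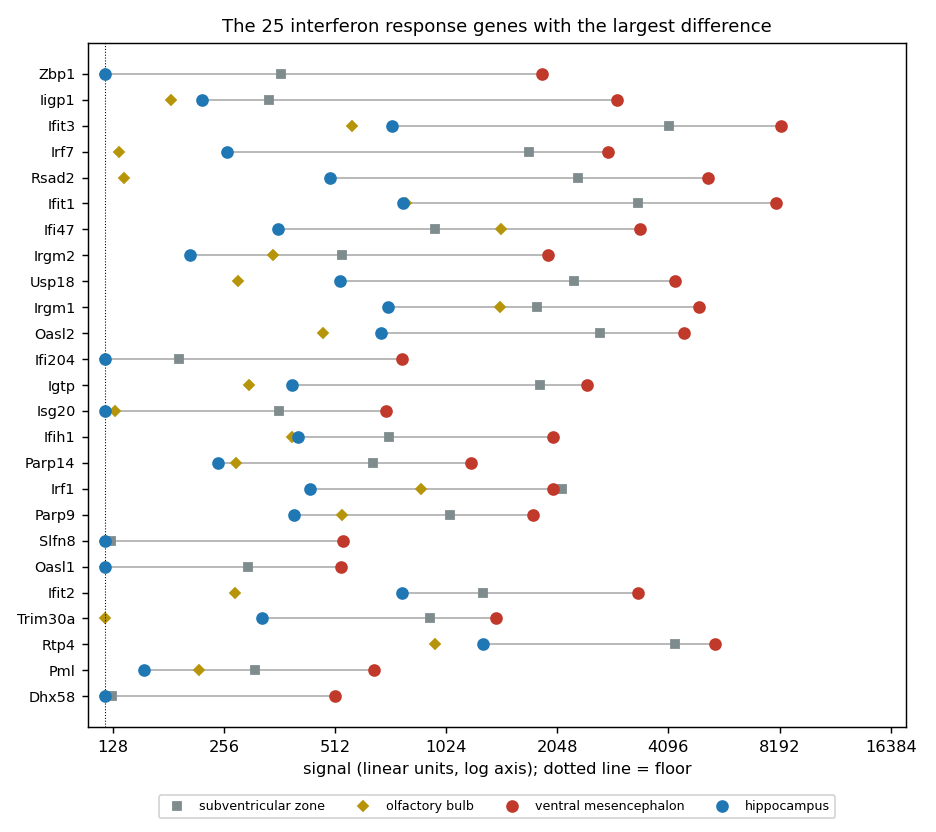
Signal (linear units, log axis) on the 4 arrays of the 25 interferon response genes with the largest difference, chosen for and ordered by it, with signals below the floor of 122.1 drawn at the floor and a grey line joining the mesencephalic and hippocampal values. For every gene shown the mesencephalic point lies at least 2-fold to the right of the hippocampal one.

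The promoters of these genes were read for the core of the interferon-stimulated response element, because many members of the list lay on the same side. The letters GAAA, any 2 bases, then GAAA were searched on both strands of the RefSeq window from 250 bases before to 50 after each start (build GRCm38.p6), and matches may overlap each other. Of the 44 genes higher in the mesencephalic culture, 32 had a window, and 20 of their 40 windows (50%) held the letters. Among all 32851 windows 1131 did (3.44%). For the members within 2-fold it was 4 of 14 windows (28.6%). Over all genes higher in the mesencephalic culture it was 48 of 531 windows (9.04%), over those higher in the hippocampal culture 37 of 824 (4.49%), and over those within 2-fold 183 of 6814 (2.69%). The stretches below come from 5 of the 10 members with the largest difference and are shown to let the letters be seen in place; they are printed 5′ to 3′ on the gene's strand with the bases matched on either strand in capitals, and a match is a description of the letters only.
Ifit3, chr19:34583362-34583461, plus strand: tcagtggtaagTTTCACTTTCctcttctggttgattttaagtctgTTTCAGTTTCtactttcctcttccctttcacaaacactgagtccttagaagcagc
Rsad2, chr12:26456518-26456617, minus strand: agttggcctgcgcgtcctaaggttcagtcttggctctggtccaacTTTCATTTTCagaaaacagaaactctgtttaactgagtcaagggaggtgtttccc
Ifit1, chr19:34640759-34640858, plus strand: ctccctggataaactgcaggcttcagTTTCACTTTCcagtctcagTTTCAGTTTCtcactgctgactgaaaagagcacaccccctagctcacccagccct
Irgm2, chr11:58214868-58214967, plus strand: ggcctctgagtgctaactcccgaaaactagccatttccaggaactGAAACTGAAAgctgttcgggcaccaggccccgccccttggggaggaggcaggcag
Irgm1, chr11:48871421-48871520, minus strand: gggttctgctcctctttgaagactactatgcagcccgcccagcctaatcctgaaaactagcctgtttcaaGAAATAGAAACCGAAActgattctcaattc
Ifit3 and Ifit1 each held them at 2 places in these 100 bases, and in Irgm1 2 matches overlapped. Irgm2 and Irgm1, GTPases of cell-autonomous immunity, read 1936 against 207 (9.33-fold) and 4968 against 712 (6.97-fold).

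Antigen presentation followed in part. Of 17 class I and processing genes, 7 were higher in the mesencephalic and 0 in the hippocampal culture, 9 lay within 2-fold and 1 was below the floor on both arrays, with a median of 0.89. The peptide transporter subunit Tap1 read 779 against 189 (4.12-fold, mesencephalic higher) and the immunoproteasome subunit Psmb8 1763 against 577 (3.06-fold). As a mean over its 4 probe sets Tap1 differed by 0.51 and was not called. Beta-2-microglobulin, B2m, the invariant light chain, differed by 0.75. The heavy chain H2-D1 read 10243 against 3775 (2.71-fold, mesencephalic higher), but class I heavy chains are near-identical and its value is uncertain: over all its probe sets the mean difference was -0.48. All 8 class II genes named on the array were below the floor in both cultures.

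Chemokines split into 2 sets that did not differ in the same direction. Of 33 named on the array, 11 were higher in the mesencephalic and 7 in the hippocampal culture, 3 lay within 2-fold and 12 were below the floor on both arrays; the median over those compared was 1.03. Besides Ccl5 and Cxcl11, the mesencephalic culture was higher in Cxcl10 (5090.0 against 389, 13.1-fold), a T cell attractant, in the monocyte attractants Ccl8 (1797 against 135, 13.3-fold), Ccl7 (3467 against 705, 4.92-fold) and Ccl2 (6872 against 1739, 3.95-fold), and in the neutrophil attractants Cxcl5 (3878 against 391, 9.91-fold), Cxcl1 (8283 against 854, 9.7-fold) and Cxcl2 (816 against 401, 2.04-fold). The hippocampal culture was higher in Ccl6 (1978 against 20.9, at least 16.2-fold), Ccl12 (1331 against 2.2, at least 10.9-fold), Ccl9 (1054 against 99.5, at least 8.63-fold), Ccl3 (767 against 4.5, at least 6.28-fold) and Ccl4 (327 against 33.2, at least 2.68-fold), chemokines known from macrophages and microglia. Of those 5, each was below the floor in the mesencephalic culture. Cxcl12, the stromal chemokine, differed by 0.89 and its receptor Cxcr4 was higher in the hippocampal culture at 659 against 237 (2.78-fold).

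Among 40 cytokines, 6 were higher in the mesencephalic and 2 in the hippocampal culture, 8 lay within 2-fold and 24 were below the floor on both arrays. After Il6 came the alarmin Il33 (1344 against 202, 6.64-fold, mesencephalic higher), the Il6-family cytokine Lif (682 against 64, at least 5.58-fold), the lymphocyte factor Il7 (635 against 36.8, at least 5.2-fold) and Csf1 (4004 against 1601, 2.5-fold), the ligand of Csf1r. The hippocampal culture was higher in Tnf (263 against 2.5, at least 2.15-fold) and in the Il27 subunit Ebi3 (262 against 3.1, at least 2.15-fold). The ligand Csf1 and its receptor thus lay on opposite sides. Of 41 receptors, 3 were higher in the mesencephalic and 4 in the hippocampal culture, 19 lay within 2-fold and 15 were below the floor on both arrays. Il13ra2, the decoy receptor for Il13, read 644 against 18.1 (at least 5.28-fold) in the mesencephalic culture. The hippocampal culture was higher in the myeloid receptor chain Csf2ra (608 against 120.5, at least 4.98-fold) and the bacterial lipopeptide receptor pair Tlr1 (427 against 151, 2.84-fold) and Tlr2 (949 against 408, 2.33-fold). Receptors through which Il6 and Lif signal lay within 2-fold, with Il6st at 0.63 and Lifr at -0.47 on the log2 scale.

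**Figure D3:**
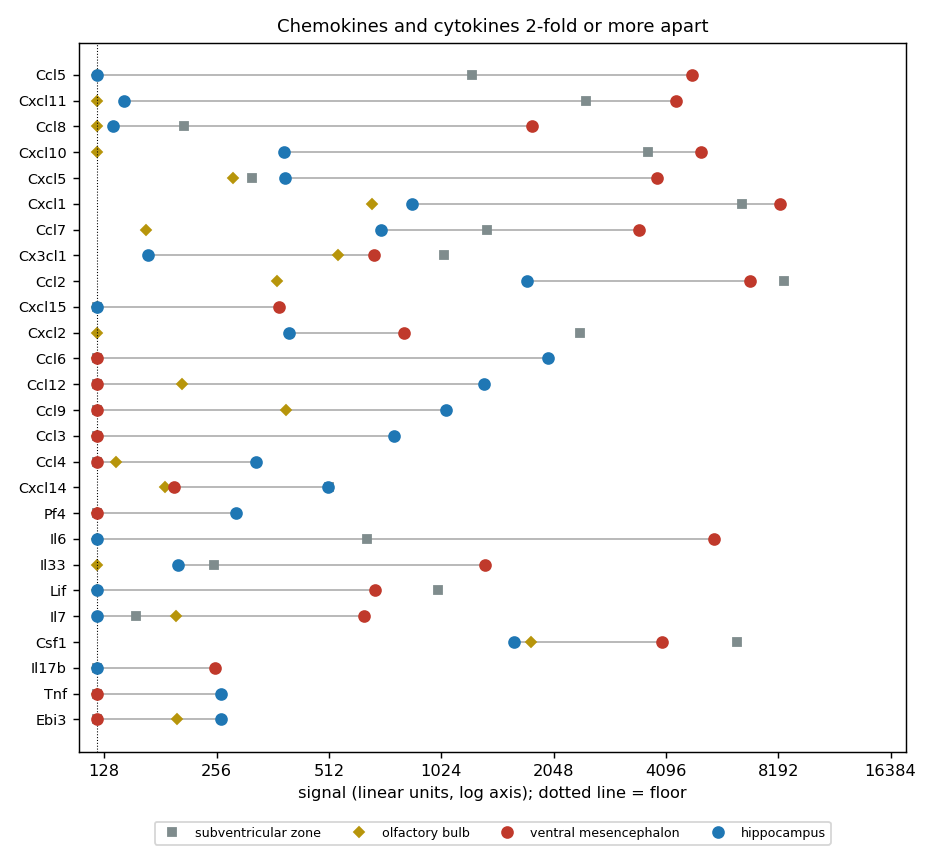
Signal (linear units, log axis) on the 4 arrays of the chemokines and cytokines at least 2-fold apart between the mesencephalic and hippocampal cultures, with signals below the floor of 122.1 drawn at the floor, where points can cover each other. The 11 chemokines and 6 cytokines higher in the mesencephalic culture head each block, and the 7 chemokines and 2 cytokines higher in the hippocampal culture close it.

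Genes induced through NF-kappaB, the transcription factor family of acute inflammation, were called mostly in the mesencephalic direction. Of 41, 13 were higher in the mesencephalic and 3 in the hippocampal culture. A further 18 lay within 2-fold and 7 were below the floor on both arrays, and the median was 0.84. Of the 34 compared, 38.2% were higher in the mesencephalic culture, beside 7.04% over all genes compared. The hippocampal share was 8.82%, beside 9.79%. The prostaglandin synthase Ptgs2 read 6113 against 391.6 (15.6-fold, mesencephalic higher) and Ptges, the enzyme next in that path, 715 against 152 (4.72-fold). The stromelysin Mmp3 read 2981 against 179.8 (16.6-fold, mesencephalic higher). The feedback inhibitors Tnfaip3 (1069.9 against 37, at least 8.76-fold), Nfkbiz (5113 against 769, 6.65-fold) and Zc3h12a (675 against 82.8, at least 5.52-fold) lay on the same side. The acute phase genes Lcn2 (0.68), Saa3 (0.61) and Hp (-0.77) lay within 2-fold. The gelatinase Mmp9 was higher in the hippocampal culture (1021 against 6.0, at least 8.37-fold). The letters GGGA, any base, then TTTCC, an NF-kappaB core, were searched in the same windows on both strands. Of the 13 genes higher in the mesencephalic culture 11 had a window, and 2 of their 14 windows held the letters. Of the 11 chemokines higher in it 6 had a window, and 2 of their 6 windows did. Over all genes higher in the mesencephalic culture it was 7 of 531 windows (1.32%) and over those higher in the hippocampal culture 1 of 824 (0.121%). Among all 32851 windows 135 did (0.411%). The chemokine stretches and that of Nfkb2, which encodes a precursor of the family, are printed in the same way to show the matched letters in capitals.
Cxcl1, chr5:90891129-90891228, plus strand: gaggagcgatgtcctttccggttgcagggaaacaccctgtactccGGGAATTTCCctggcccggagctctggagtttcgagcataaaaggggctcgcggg
Cxcl2, chr5:90903757-90903856, plus strand: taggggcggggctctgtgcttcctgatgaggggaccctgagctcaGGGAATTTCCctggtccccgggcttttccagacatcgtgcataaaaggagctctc
Nfkb2, chr19:46305680-46305779, plus strand: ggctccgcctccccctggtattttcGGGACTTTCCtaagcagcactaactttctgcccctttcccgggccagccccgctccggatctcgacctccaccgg
Nfkb2 itself read 399 against 154 (2.59-fold).

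Genes known from reactive astrocytes went both ways: of 35, 12 were higher in the mesencephalic and 7 in the hippocampal culture, 15 lay within 2-fold and 1 was below the floor on both arrays. Of the 12, 5 (Cxcl10, Iigp1, Gbp2, Psmb8 and H2-D1) are also interferon, chemokine or class I genes. The protease inhibitor Timp1 read 8024 against 1114 (7.21-fold, mesencephalic higher), the pattern recognition protein Ptx3 8605 against 1766 (4.87-fold) and ceruloplasmin, Cp, a copper-carrying ferroxidase, 12093 against 3212 (3.77-fold). On the hippocampal side lay Gfap, the lipopolysaccharide co-receptor Cd14 (4436 against 368, 12-fold) and the granule proteoglycan Srgn (1090.2 against 41.8, at least 8.93-fold). Vim differed by 0.33, Lcn2 by 0.68 and Serpina3n by -0.55, all within 2-fold.

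Complement genes were called on both sides. Of 22 named, 4 were higher in the mesencephalic and 7 in the hippocampal culture, 6 lay within 2-fold and 5 were below the floor on both arrays. The early serine proteases C1s1 (1311 against 388, 3.38-fold) and C1ra (934 against 364, 2.56-fold), the lectin pathway protease Masp1 (1352 against 163, 8.3-fold) and the inhibitor C4bp (1579 against 9.3, at least 12.9-fold) were higher in the mesencephalic culture. The receptors C3ar1 (742 against 31.7, at least 6.07-fold) and C5ar1 (440.2 against 2.2, at least 3.61-fold) and properdin, Cfp (1059 against 4.5, at least 8.67-fold), were higher in the hippocampal culture, as were the chains of C1q, the recognition subunit, on the microglia list, with C1qa at 3527 against 1.5 (at least 28.9-fold). The proteases and their recognition subunit were thus called on opposite sides.

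Microglia and macrophage markers were higher in the hippocampal culture. Of 54 named on the array, 0 were higher in the mesencephalic and 43 in the hippocampal culture, 7 lay within 2-fold and 4 were below the floor on both arrays, with a median of -2.97. For 39 of the 43 the mesencephalic signal was below the floor, so the difference is a lower bound. The summed signal of the markers compared was 4086 in the mesencephalic and 81808 in the hippocampal culture, and 3800 and 62327 in the subventricular zone and olfactory bulb. Some markers were far below the floor in the mesencephalic culture: Tyrobp, the adaptor of microglial receptors, read 0.8 against 3061, Aif1 8.5 against 389.7, Cx3cr1, the fractalkine receptor, 11.9 against 739, and Itgb2 14.6 against 1396. Others, such as Csf1r and Lyz2, were below the floor but nearer to it, and Cd14 was above it. The lineage transcription factor Spi1 read 25.3 against 614. Cd14, the C1q chains and C3ar1, named above, are themselves members of this list. The hippocampal chemokines, Tnf, Mmp9 and C5ar1 lay on the same side as these markers, and the markers' part in those values was not tested. Cx3cl1, the ligand of Cx3cr1, was on the other side, at 678 against 168 (4.04-fold) in the mesencephalic culture.

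Lysosomal and phagocytic genes did not lie on 1 side. Of 40, 3 were higher in the mesencephalic and 9 in the hippocampal culture, 27 lay within 2-fold and 1 was below the floor on both arrays, and the median was -0.21. The dipeptidyl peptidase cathepsin C, Ctsc (5255 against 505, 10.4-fold), Gpnmb (3087 against 419.8, 7.35-fold), the scavenger receptor Cd36 (572 against 21.3, at least 4.68-fold) and beta-glucuronidase, Gusb (2393 against 696, 3.44-fold), were higher in the hippocampal culture. Structural lysosome genes were close to equal, with Lamp1 at 0.09, Ctsd at -0.03 and Ctsb at -0.52. The receptor tyrosine kinases of apoptotic cell uptake lay on opposite sides: Axl read 2206 against 926 (2.38-fold) in the mesencephalic culture and Mertk 370.5 against 64.1 (at least 3.03-fold) in the hippocampal one. Cathepsin K, Ctsk, a collagen-degrading protease of osteoclasts and fibroblasts, was higher in the mesencephalic culture (866 against 239, 3.62-fold).

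Fibroblast and meningeal markers leaned to the mesencephalic culture. Of 45, 21 were higher in the mesencephalic and 4 in the hippocampal culture, 11 lay within 2-fold and 9 were below the floor on both arrays; the median was 1.27 and the summed signal 82121 against 46308. None of the defining fibroblast genes Col1a1, Col1a2, Col3a1 and Dcn was at the floor in either culture. The transcription factors Twist1 (692 against 80.2, at least 5.67-fold), Prrx2 (1300.3 against 234, 5.55-fold), Foxd1 (2088 against 382, 5.47-fold), Foxc2 (736 against 160.4, 4.59-fold) and Foxc1 (2041 against 651, 3.14-fold), which mark mesenchyme and meninges, were higher in it. Collagen I chains read 7145 against 2812 (2.54-fold, mesencephalic higher) for Col1a1 and 9273 against 4562 (2.03-fold) for Col1a2, while Col3a1 differed by 0.83. After quantile normalization Col1a2 differed by 0.68 and was not called. The exceptions were Mfap4 (840.0 against 61.3, at least 6.88-fold), the platelet-derived growth factor receptor Pdgfra (432 against 74.2, at least 3.53-fold), Fmod (2000.0 against 733, 2.73-fold) and Ogn (1759 against 835, 2.11-fold), higher in the hippocampal culture. In the olfactory bulb Foxc2 (4041), Foxc1 (3515) and Postn (2471) read above both cultures.

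Matrix genes followed the same side. Of 36 collagen and collagen-modifying genes, 10 were higher in the mesencephalic and 1 in the hippocampal culture, 18 lay within 2-fold and 7 were below the floor on both arrays, with a median of 0.76. The cross-linking enzyme Lox read 10067 against 2327 (4.33-fold, mesencephalic higher) and the prolyl hydroxylase subunit P4ha2 1471 against 289 (5.08-fold). Of 26 basement membrane genes, 6 were higher in the mesencephalic and 4 in the hippocampal culture, 9 lay within 2-fold and 7 were below the floor on both arrays; Smoc1 (1399 against 115, at least 11.5-fold) and the laminin chain Lama4 (1308 against 363, 3.61-fold) joined Smoc2 and Fbln2, while Col4a6 (395 against 111, at least 3.24-fold) and Col4a5 (1991 against 836, 2.38-fold) were higher in the hippocampal culture and their partners Col4a1 (0.89) and Col4a2 (1.18) leaned the other way. Of 52 proteoglycan and matricellular genes, 18 were higher in the mesencephalic and 7 in the hippocampal culture, 19 lay within 2-fold and 8 were below the floor on both arrays. Thbs2, an anti-angiogenic thrombospondin, read 4982 against 477 (10.4-fold, mesencephalic higher), the fibulin-like Efemp1 4865 against 473 (10.3-fold) and fibronectin, Fn1, 11129 against 4026 (2.76-fold). The hippocampal side of that list held the neural chondroitin sulphate proteoglycans Bcan (520.3 against 131, 3.96-fold), Ncan (1483 against 359, 4.14-fold) and Cspg5 (443 against 63.2, at least 3.63-fold), the core of brain matrix. Vcan, a versican made by many mesenchymal cells as well, read 622 against 178 (3.49-fold) in the mesencephalic culture.

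Among 36 matrix proteases and inhibitors, 11 were higher in the mesencephalic and 5 in the hippocampal culture, 15 lay within 2-fold and 5 were below the floor on both arrays. The aggrecanase Adamts5 read 1921 against 301 (6.37-fold, mesencephalic higher) and the gelatinase Mmp2 2613 against 1301 (2.01-fold). On the hippocampal side Adam8 (1341 against 45.9, at least 11-fold), Mmp9 and the macrophage elastase Mmp12 (402 against 25.3, at least 3.29-fold) are genes of myeloid cells, and Htra1 (1797 against 571, 3.15-fold) is also an astrocyte gene. All of Timp1, Timp2 (11938 against 4672, 2.56-fold) and Timp3 (5914 against 2838, 2.08-fold) were higher in the mesencephalic culture, and Timp4 differed by 0.21. After quantile normalization Timp3 (0.84) and Mmp2 (0.99) no longer reached 2-fold. The fibroblast markers move with these matrix genes, several of which are on both lists, and their part was not tested.

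Pericyte and endothelial genes gave little. Of 20 pericyte and smooth muscle markers, 2 were higher in the mesencephalic and 2 in the hippocampal culture, 8 lay within 2-fold and 8 were below the floor on both arrays; Acta2 differed by 0.32, Tagln by 0.03 and Pdgfrb by 0.73. The smooth muscle actin Actg2 was higher in the mesencephalic culture (879 against 220.2, 3.99-fold) and calponin, Cnn1, in the hippocampal one (2105 against 782, 2.69-fold). Of 20 endothelial markers, 17 were below the floor on both arrays. The 3 compared were Eng (351 against 164, 2.15-fold) and Cdh5 (254 against 78.8, at least 2.08-fold), higher in the mesencephalic culture, and the transporter Slco1a4, higher in the hippocampal one (708 against 90.7, at least 5.8-fold); their median was 1.06 and their mean -0.12, opposite in sign.

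The cells labelled astrocytes were checked against 46 astrocyte markers. Both cultures held most of them above the floor, and the hippocampal culture read higher in the larger share: 1 was higher in the mesencephalic and 25 in the hippocampal culture, 15 lay within 2-fold and 5 were below the floor on both arrays. The median was -1.42 and the summed signal 38558 against 105009. Gfap, the intermediate filament protein of astrocytes, read 10027 against 1007 (9.95-fold) in the hippocampal against the mesencephalic culture, and the glutamate transporter Slc1a3 4328 against 641 (6.75-fold). The inward rectifier potassium channel Kcnj10 read 4779 against 376 (12.7-fold, hippocampal higher) and Mlc1, a membrane protein of astrocyte endfeet, 3326 against 444 (7.49-fold). The brain aldolase Aldoc read 5221 against 564 (9.26-fold, hippocampal higher), and Ppp1r3c, which directs protein phosphatase to glycogen, 2161 against 85.9 (at least 17.7-fold). Sox9, a glial fate transcription factor, read 1623 against 605 (2.68-fold, hippocampal higher) and the growth inhibitory metallothionein Mt3 7678 against 1237 (6.21-fold).

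Other defining astrocyte genes lay within 2-fold or were close to it. Aldh1l1, the folate enzyme widely used to mark the cell type, read 1711 and 1727, a log2 difference of -0.01. The gap junction gene Gja1 differed by 0.11, Fgfr3 by -0.09, Sparcl1 by -0.03 and Nfia by -0.44. Glul, glutamine synthetase, read 1736 and 2891 (-0.74), within 2-fold, and Aqp4, the endfoot water channel, 1956 and 3943 (-1.01), just past it. S100b was above the floor in the hippocampal culture alone (269 against 73). Slc1a2, the adult glutamate transporter, was below the floor in both, at 37.9 and 43.5. The differences were thus uneven across the list. Dio2, which activates thyroid hormone, was the single marker higher in the mesencephalic culture (773 against 182, 4.24-fold).

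Transport genes showed the same side, though 11 of the 31 compared are also on other lists, among them the astrocyte marker Atp1b2. Of 40 genes of glutamate, GABA, potassium and water handling, 0 were higher in the mesencephalic and 11 in the hippocampal culture, 20 lay within 2-fold and 9 were below the floor on both arrays, and the median was -0.74. The glutamine transporter Slc38a3 read 1900.3 against 142 (13.4-fold, hippocampal higher), the GABA receptor subunit Gabrb1 1304 against 43.4 (at least 10.7-fold) and the background potassium channel Kcnk2 1073 against 87.9 (at least 8.79-fold). The sodium pump subunits Atp1b2 (4132 against 551, 7.5-fold, hippocampal higher) and Atp1b1 (4785 against 1337, 3.58-fold) lay there too. Aqp1, the choroid plexus water channel, read 1457 against 142 (10.3-fold, hippocampal higher). The gap junction genes Gjb6 (-0.27) and Gjb2 (0.84) and the bicarbonate transporter Slc4a4 (-0.12) were within 2-fold.

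Cholesterol and fatty acid synthesis genes were called in 1 direction only. Of 33, 0 were higher in the mesencephalic and 17 in the hippocampal culture, 15 lay within 2-fold and 1 was below the floor on both arrays, with a median of -1.05. The desaturases Fads2 (2291 against 509, 4.5-fold, hippocampal higher) and Fads1 (2652 against 698, 3.8-fold) make polyunsaturated fatty acids. In the sterol path Idi1 (650.4 against 178, 3.65-fold), Sqle (1512 against 432, 3.5-fold), Msmo1 (1832 against 601, 3.05-fold) and Hmgcs1 (4002 against 1324, 3.02-fold) were higher in the hippocampal culture. Thrsp, a lipogenic gene responsive to thyroid hormone, read 732 against 20.4 (at least 5.99-fold, hippocampal higher). The master regulator Srebf2 read 484 against 225 (2.15-fold, hippocampal higher). The synthase Fasn (-0.92), the sterol demethylase Cyp51 (-1.0) and Srebf1 (-0.87) leaned to the hippocampal culture without reaching 2-fold, and only Me1 (0.26) and Mvk (0.07) were above 0. After quantile normalization 15 members were called in that direction. The letters TCACNCCAC, N being any base, a sterol regulatory element core, were searched in the same way. Of these 17 genes 10 had a window, and 1 of their 12 windows held the letters. Over all genes higher in the hippocampal culture it was 17 of 824 windows (2.06%), and among all 32851 windows 408 (1.24%).

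**Figure D4:**
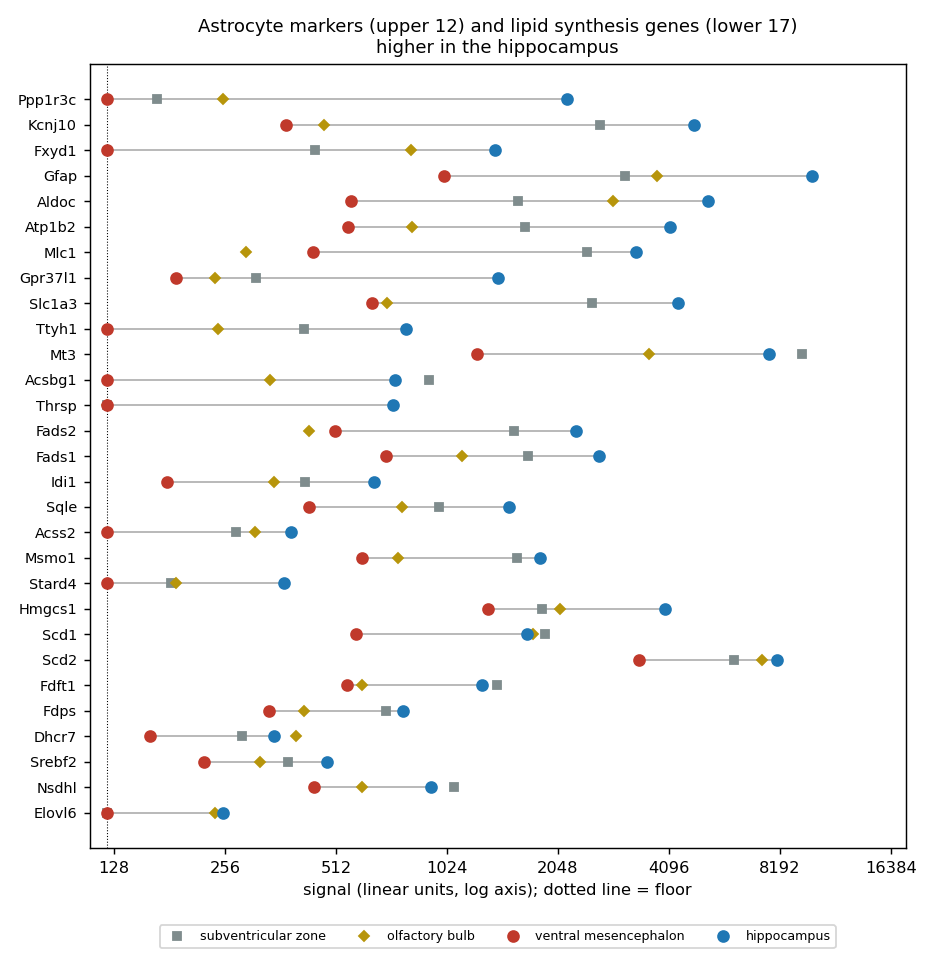
Signal (linear units, log axis) on the 4 arrays of the 12 astrocyte markers with the largest difference towards the hippocampal culture (upper block) and of the 17 cholesterol and fatty acid synthesis genes higher in it (lower block), with signals below the floor of 122.1 drawn at the floor. The genes shown were chosen for that direction, so each hippocampal point lies at least 2-fold to the right of the mesencephalic one; the subventricular zone and olfactory bulb points lie between them for most genes.

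Lipid carriers and transporters showed a smaller shift, and 14 of the 35 compared are also on other lists, among them the astrocyte markers Acsbg1, Acsl6 and Clu. Of 40, 2 were higher in the mesencephalic and 11 in the hippocampal culture, 22 lay within 2-fold and 5 were below the floor on both arrays, with a median of -0.38. The acyl-CoA synthetases Acsbg1 (741 against 61.9, at least 6.07-fold) and Acsl6 (723 against 62.8, at least 5.92-fold) and the ketone body enzymes Bdh1 (612 against 115, at least 5.01-fold) and Oxct1 (4064 against 1402, 2.9-fold) were higher in the hippocampal culture. Clusterin, Clu, a secreted lipoprotein, read 8109 against 2477 (3.27-fold, hippocampal higher). Apoe, the main lipoprotein of astrocytes, differed by -0.90 and the cholesterol exporters Abca1 and Abcg1 by -0.71 and -0.20. Fabp4 (519 against 23.4, at least 4.25-fold, hippocampal higher), Lpl (356 against 23.2, at least 2.92-fold) and Cd36 are also macrophage genes, and they lay on the side of the microglia markers. The lipoprotein receptor Vldlr was higher in the mesencephalic culture (809 against 245, 3.31-fold).

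Transcription factors of the 2 regions of origin were read next. Of 29 telencephalic factors, 0 were higher in the mesencephalic and 8 in the hippocampal culture, 3 lay within 2-fold and 18 were below the floor on both arrays, with a median of -1.48. Lhx2, which specifies cortex and hippocampus, read 1178 against 22.2 (at least 9.65-fold), and Hopx, a homeodomain protein of radial glia, 2489 against 283 (8.79-fold). The patterning factor Pax6 read 547 against 46.2 (at least 4.48-fold), Meis2 639.9 against 69.6 (at least 5.24-fold) and Zbtb20, which specifies hippocampal pyramidal fields, 1321 against 414 (3.19-fold). Pax6 was not called as a mean over its 5 probe sets (-0.43) or with the floor at the 70th percentile (-0.60). In the olfactory bulb, also a telencephalic region, Lhx2 read 145, Pax6 65.4 and Meis2 117, and 7 of the 8 called factors lay nearer to the mesencephalic than to the hippocampal signal; in the subventricular zone 4 of the 8 did. Nr2f1 read 2819.8 against 1010.5 (2.79-fold), while its paralogue Nr2f2 differed by 0.66.

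Of 39 midbrain and floor plate factors and signals, 5 were higher in the mesencephalic and 0 in the hippocampal culture, 9 lay within 2-fold and 25 were below the floor on both arrays, with a median of 0.45. En2, which patterns the midbrain and hindbrain, read 442 against 16.5 (at least 3.62-fold, mesencephalic higher), and the floor plate factor Foxa1 483 against 5.3 (at least 3.96-fold). Both were below the floor in the hippocampal, subventricular zone (3.8 and 2.0) and olfactory bulb cultures (1.8 and 0.9). The neural tube factors Irx3 (1331 against 132, 10.1-fold, mesencephalic higher) and Irx5 (349 against 44.5, at least 2.86-fold) were higher too, with Irx3 at 950.0 in the olfactory bulb. Msx2 read 317 against 97.3 (at least 2.6-fold, mesencephalic higher). Its paralogue Msx1 leaned the other way, at 267 in the hippocampal against 135 in the mesencephalic culture (1.98-fold), just within 2-fold. The dopaminergic factors read 126 against 7.5 (Foxa2) and 131 against 33.4 (Nr4a2), and the fore- and midbrain factor Otx2 134 against 85.4. All were below the floor in the hippocampal culture and just above it in the mesencephalic one. Their differences of 0.05, 0.10 and 0.13 are therefore lower bounds and were not called. Because members are compared only when above the floor somewhere, these counts describe the expressed members: 18 telencephalic and 25 midbrain members were below it on both arrays. A member above the floor in 1 culture alone can only differ towards that culture. This held for 4 of the 5 midbrain members called and for most midbrain members within 2-fold. It also held for 4 of the 8 telencephalic members called. Over midbrain members above the floor on both arrays the median was -0.0056. None of the 30 Hox genes named on the array, which mark hindbrain and spinal cord, was above the floor in either culture.

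Genes of neural progenitors were higher in the hippocampal culture for 12 of the 24 members compared: of 27, 3 were higher in the mesencephalic and 12 in the hippocampal culture, 9 lay within 2-fold and 3 were below the floor on both arrays. The receptor phosphatase Ptprz1 read 2355 against 168 (14-fold, hippocampal higher), prominin, Prom1, 1744 against 333 (5.24-fold), Sox2 2854 against 968 (2.95-fold) and nestin, Nes, 995 against 429 (2.32-fold). Fabp7 (-0.46) and Vim lay within 2-fold. The receptor Egfr was higher in the mesencephalic culture (442 against 76.8, at least 3.62-fold).

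Markers of further cell types were read the same way. Of 15 ependymal and cilia genes, 0 were higher in the mesencephalic and 9 in the hippocampal culture, 1 lay within 2-fold and 5 were below the floor on both arrays: Foxj1, the master factor of motile cilia, read 1909.5 against 304 (6.28-fold, hippocampal higher), the radial spoke gene Rsph1 1156 against 75.6 (at least 9.47-fold) and Tppp3 1330.1 against 189 (7.04-fold). Of 11 choroid plexus markers, 0 were higher in the mesencephalic and 5 in the hippocampal culture, 2 lay within 2-fold and 4 were below the floor on both arrays. With Ttr lay Folr1, the folate receptor of that tissue (550.3 against 58.7, at least 4.51-fold, hippocampal higher), and Calml4 (1301 against 180.5, 7.21-fold). The summed signals of these lists in the hippocampal against the mesencephalic culture were 8450.0 against 980.3 for cilia and 13322 against 654 for choroid plexus. Ttr alone made up the larger part of the hippocampal choroid plexus sum. The part of such cells in the other hippocampal differences was not tested.

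Of 36 neuronal markers, 1 was higher in the mesencephalic and 5 in the hippocampal culture, 7 lay within 2-fold and 23 were below the floor on both arrays. Besides Scg3, the granule protein Scg5 (849.7 against 35.4, at least 6.96-fold), the Notch-related receptor Dner (1162 against 98.8, at least 9.52-fold) and Rtn1 (3472 against 569, 6.1-fold) were higher in the hippocampal culture and the microtubule regulator Stmn2 in the mesencephalic one (1331 against 514, 2.59-fold). Of 18 oligodendrocyte lineage markers, 0 were higher in the mesencephalic and 3 in the hippocampal culture, 4 lay within 2-fold and 11 were below the floor on both arrays. Olig1 read 2700.0 against 621 (4.35-fold, hippocampal higher) and Cnp 3286 against 1104 (2.98-fold), while Olig2 (-0.98) and Mbp (-0.38) were within 2-fold. Of 15 olfactory ensheathing and Schwann cell markers, 2 were higher in the mesencephalic and 4 in the hippocampal culture, 4 lay within 2-fold and 5 were below the floor on both arrays. Mia was higher in the hippocampal culture (2034 against 136, 14.9-fold), with 17.3 and 47.2 in the subventricular zone and olfactory bulb. Egr2, also an immediate early gene, was higher in the mesencephalic culture (1026 against 89.1, at least 8.4-fold).

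**Figure D5:**
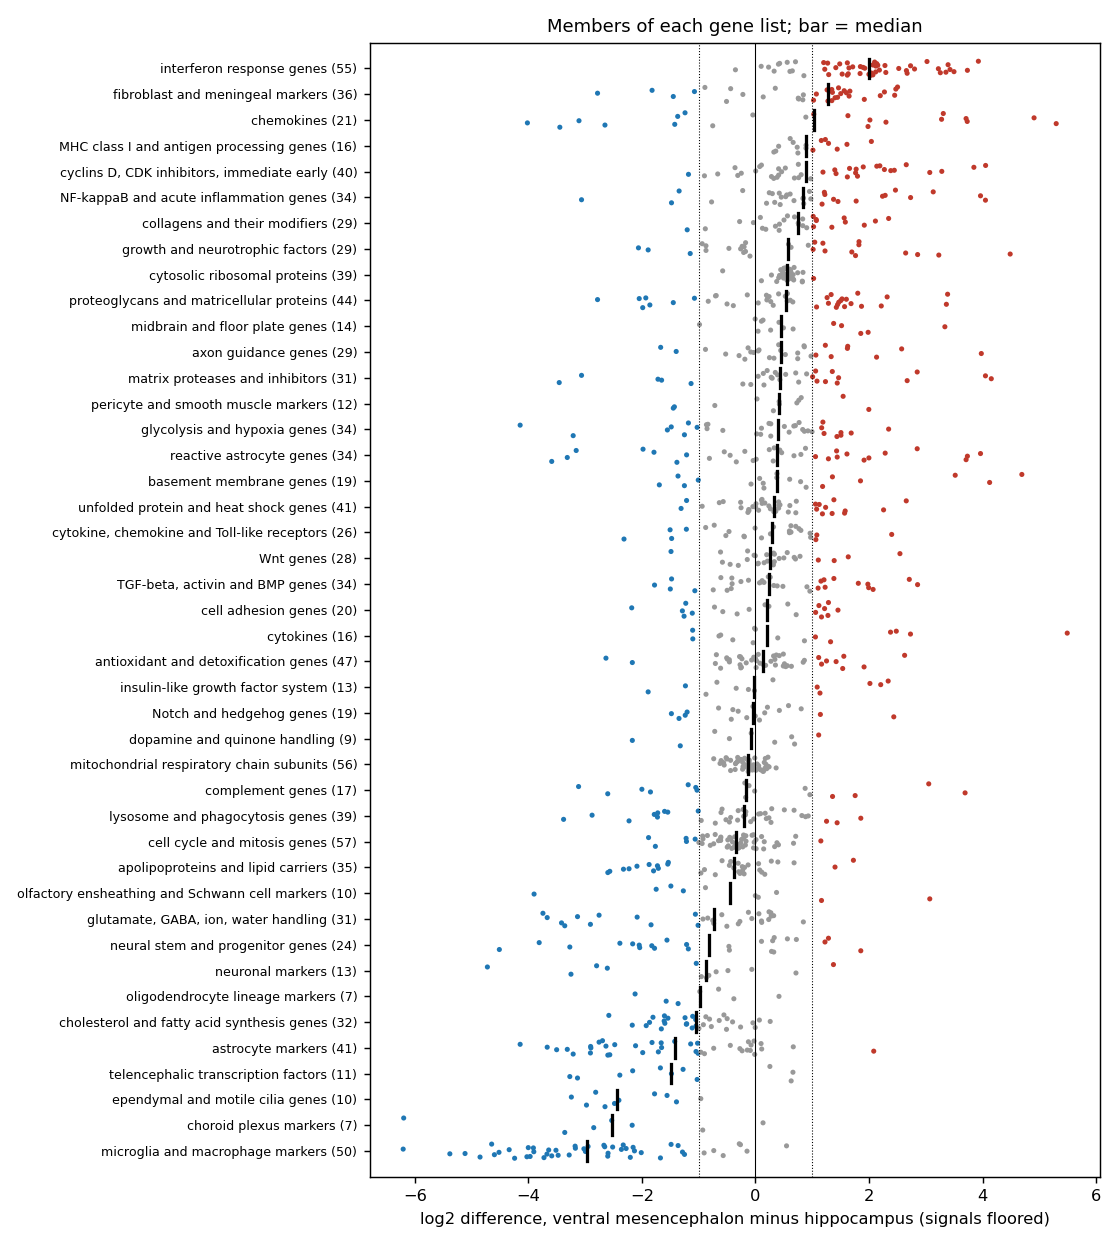
Log2 difference (horizontal, mesencephalic minus hippocampal culture, after the floor) of each compared member of the gene lists with 7 or more such members, 1 point a gene, with the number of members in brackets, a black bar at the list's median and dotted lines at 2-fold. Interferon response genes have the highest median, 2.00, and microglia and macrophage markers the lowest, -2.97; most other lists hold points on both sides of 0.

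Secreted growth factors leaned to the mesencephalic culture by count. Of 44 growth and neurotrophic factors, 12 were higher in the mesencephalic and 3 in the hippocampal culture, 14 lay within 2-fold and 15 were below the floor on both arrays. The neurotrophin Bdnf read 1145 against 122 (at least 9.38-fold, mesencephalic higher) and Gdnf, the survival factor of dopaminergic neurons, 396 against 17.7 (at least 3.24-fold). Endothelin, Edn1, read 884 against 51.2 (at least 7.24-fold, mesencephalic higher) and the epithelial growth factor Fgf7 1153 against 184 (6.26-fold). The vessel growth factors Vegfd (432 against 44.1, at least 3.54-fold), Pgf (432 against 80.9, at least 3.54-fold), Vegfa (711 against 312, 2.28-fold) and Vegfc (335 against 162, 2.06-fold) were on that side. Vegfb (-0.17) and Angpt2 (-0.10) lay within 2-fold. On the hippocampal side lay Metrn, meteorin, a glial differentiation factor (2985 against 715, 4.17-fold), and Igf2 (3441 against 928, 3.71-fold). Among the insulin-like growth factor system of 18 genes, 5 were higher in the mesencephalic and 2 in the hippocampal culture, 6 lay within 2-fold and 5 were below the floor on both arrays. The binding proteins split, with Igfbp6 (564 against 113, at least 4.62-fold), Igfbp7 (8382 against 2072, 4.05-fold) and Igfbp4 (8156 against 3838, 2.12-fold) higher in the mesencephalic culture and Igfbp5 (8237 against 3502, 2.35-fold) in the hippocampal one. After quantile normalization Igfbp4 differed by 0.79 and was not called. The binding protein protease Pappa read 633 against 125 (5.06-fold, mesencephalic higher).

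In the TGF-beta, activin and BMP group of 50 genes, 11 were higher in the mesencephalic and 4 in the hippocampal culture, 19 lay within 2-fold and 16 were below the floor on both arrays. The ligand subunits Inhba (884 against 119, at least 7.24-fold), Inhbb (1326 against 336, 3.94-fold), Bmp4 (1752 against 417, 4.2-fold) and Tgfb2 (959.5 against 368, 2.61-fold) were higher in the mesencephalic culture, and so were the inhibitors Smad7 (1022 against 156, 6.54-fold), Smad6 (1173 against 508, 2.31-fold) and Fst (486 against 52.6, at least 3.98-fold). Tgfb1 (850.0 against 305, 2.79-fold) and Bmp6 (1272 against 449.5, 2.83-fold) were higher in the hippocampal culture. The target genes Id1 (0.48), Id2 (0.38) and Id3 (0.32) were within 2-fold while Id4 read 4442 against 1295 (3.43-fold, hippocampal higher). Of the receptors, Tgfbr1 (-0.61), Tgfbr2 (0.26) and Bmpr1a (-0.43) were within 2-fold and Acvr1b (899 against 429, 2.1-fold, hippocampal higher) was not.

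Of 52 Wnt genes, 4 were higher in the mesencephalic and 1 in the hippocampal culture, 23 lay within 2-fold and 24 were below the floor on both arrays. The secreted antagonist Wif1 (713 against 81.3, at least 5.84-fold) and the agonist Rspo2 (379 against 111, at least 3.1-fold) were higher in the mesencephalic culture and the ligand Wnt7a (342 against 14, at least 2.81-fold) in the hippocampal one. Of 36 Notch and hedgehog genes, 2 were higher in the mesencephalic and 4 in the hippocampal culture, 13 lay within 2-fold and 17 were below the floor on both arrays. The effector Hes1 read 702 against 129.7 (5.41-fold) in the mesencephalic culture, while the receptor Notch1 (821 against 356, 2.3-fold) and the effector Hey1 (874 against 371, 2.36-fold) were higher in the hippocampal one. Of 49 axon guidance genes, 8 were higher in the mesencephalic and 2 in the hippocampal culture, 19 lay within 2-fold and 20 were below the floor on both arrays. Netrin, Ntn1, the floor plate attractant, read 2085 against 132 (15.8-fold, mesencephalic higher); the subventricular zone read 4729.6 and the olfactory bulb 69.6. The semaphorins Sema3c (728 against 114, at least 5.96-fold) and Sema3e (375 against 57.6, at least 3.07-fold), the ephrin Efnb2 (2159 against 492, 4.39-fold) and the repellent Slit2 (1615 against 524, 3.08-fold) were on the same side, and Sema4d (389 against 63.6, at least 3.18-fold) on the other. Of 40 adhesion genes, 7 were higher in the mesencephalic and 5 in the hippocampal culture, 8 lay within 2-fold and 20 were below the floor on both arrays. The integrin chains Itga5 (635 against 273, 2.33-fold) and Itga6 (1009 against 223, 4.53-fold), for fibronectin and laminin receptors, were called on opposite sides, Itga5 higher in the mesencephalic culture and Itga6 in the hippocampal one.

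Glycolysis and hypoxia genes were called on both sides. Of 36, 8 were higher in the mesencephalic and 7 in the hippocampal culture, 19 lay within 2-fold and 2 were below the floor on both arrays. Of the 34 compared, 23.5% were higher in the mesencephalic culture, beside 7.04% over all genes compared. The hippocampal share was 20.6%, beside 9.79%. The oxygen-regulated factor Hif1a read 6834 against 2406 (2.84-fold, mesencephalic higher), Bnip3 3039 against 1070.3 (2.84-fold) and adrenomedullin, Adm, 2068 against 765 (2.7-fold). The phosphofructokinase isoforms split, with Pfkl (2723 against 1213, 2.24-fold), the liver form, on the mesencephalic side and Pfkp (2690.4 against 962, 2.8-fold) and Pfkm (1061 against 520.4, 2.04-fold) on the hippocampal side. The neuronal glucose transporter Slc2a3 read 695 against 307 (2.27-fold, hippocampal higher). None of the 56 respiratory chain subunits compared reached 2-fold in either direction (median -0.13).

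Of 49 antioxidant and detoxification genes, 8 were higher in the mesencephalic and 2 in the hippocampal culture, 37 lay within 2-fold and 2 were below the floor on both arrays. The extracellular dismutase Sod3 read 1359 against 220.0 (6.18-fold, mesencephalic higher), the cystine transporter Slc7a11 359 against 121 (at least 2.94-fold) and the quinone reductase Nqo1 264 against 57.4 (at least 2.16-fold). The glutathione transferase Gstm1 was higher in the hippocampal culture (5362 against 1192, 4.5-fold), and close paralogues may share its probes. Genes of dopamine, catecholamine and quinone handling numbered 16, with 1 higher in the mesencephalic culture, 2 higher in the hippocampal culture, 6 within 2-fold and 7 below the floor on both arrays. The monoamine oxidase Maoa differed by 0.64. Of 43 unfolded protein and heat shock genes, 11 were higher in the mesencephalic and 2 in the hippocampal culture, 28 lay within 2-fold and 2 were below the floor on both arrays. The mesencephalic calls included genes of the branch through Atf4: Atf4 itself read 3683 against 1241 (2.97-fold), Ddit3 1666 against 349 (4.78-fold), Chac1 629.5 against 210.5 (2.99-fold) and Trib3 318 against 65.2 (at least 2.61-fold). The chaperones Hspa5 (0.41) and Hsp90b1 (-0.05) were within 2-fold.

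Immediate early and growth arrest genes were a further group on the mesencephalic side. Of 44, 19 were higher in the mesencephalic and 1 in the hippocampal culture, 20 lay within 2-fold and 4 were below the floor on both arrays, with a median of 0.89. The subventricular zone shared this side: its signal lay nearer to the mesencephalic value for 19 called members and nearer to the hippocampal one for 1. In the olfactory bulb the counts were 5 and 15. The summed signal was 110770 against 44332, with 106309 in the subventricular zone and 65416 in the olfactory bulb. The orphan receptor Nr4a1 read 2384 against 144 (16.6-fold, mesencephalic higher), Klf4 2383 against 166 (14.4-fold) and the Fos family member Fosl1 1188 against 43.3 (at least 9.73-fold). Egr1 (12062 against 3552, 3.4-fold), Fos (6501 against 2852, 2.28-fold) and Junb (2921 against 926, 3.15-fold) lay on the same side. Jun (0.41) and Jund (0.53) were within 2-fold. Fosb read 168 against 20, below the floor in the hippocampal culture, so its difference of 0.46 is a lower bound and was not called. After quantile normalization Fos differed by 0.98, just inside 2-fold. The cell cycle inhibitor Cdkn1a read 7465 against 2148 (3.48-fold, mesencephalic higher), the Trp53 antagonist Mdm2 2590.4 against 589 (4.4-fold) and Ccng1, another Trp53 target, 9047 against 2946 (3.07-fold). Of 70 cell division genes, 1 was higher in the mesencephalic and 5 in the hippocampal culture. Another 51 lay within 2-fold and 13 were below the floor on both arrays. The median was -0.35, and 46 of the 57 compared were below 0. The share higher in the mesencephalic culture was 1.75%, beside 7.04% over all genes compared. The hippocampal share was 8.77%, near the 9.79% over all genes compared. The division marker Mki67 read 747 against 358 (2.09-fold) and the mitotic activator Cdc20 1652 against 487 (3.4-fold) in the hippocampal culture, while the replication enzyme Top2a differed by -0.06. After quantile normalization Mki67 differed by -0.99, just inside 2-fold. Cdc20 has 3 probe sets: without those that can read several transcripts it differed by -0.04, and as a mean over all by -0.60, neither reaching 2-fold. Mcm2, the single member called higher in the mesencephalic culture, differed by -0.20 when its probe set was chosen on these 2 arrays alone.

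Cytosolic ribosomal protein genes, which are brightly read, shifted together by less than 2-fold. Of 39 compared, 38 were above 0 with a median of 0.56, and 1, Rpl37 (898 against 442, 2.03-fold, mesencephalic higher), reached 2-fold. After quantile normalization the median was 0.18.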

How the data were processed

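RNA of the cultures was hybridised to 1 Affymetrix mouse array per region. The deposited table holds signal intensity values on a linear scale, made with GCOS 1.4 per the submitters' processing notes; its algorithm is not given in the sources used here. Both arrays have the same 2% trimmed mean, which global scaling would produce, and such scaling ties every gene's value to the rest of its culture. The series' design text speaks of 4 littermate pups and then of 3 pooled pups, and which holds is not settled here.

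The intensity values were used as deposited, raised to the floor and turned to log2 in Python 3.11.15 with pandas 2.3.3 and numpy 2.4.6. The table gives no detection calls. Gene names came from the platform's annotation: 691 probe sets name several genes, 1555 name none and 64 are controls, and these were left out; 20351 of the 20380 used matched a RefSeq gene. No test was made, and the number of arrays limits the precision. The calling script was tested on simulated data.

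By rule, named genes are the 15 furthest apart each way whose further probe sets lie on the same side, leaving out clone-type names, up to 4 called members per list and direction (up to 2 with the largest difference where none is called), 7 astrocyte genes always, and up to 10 region transcription factors per direction. Other list members were picked for naming with their values in view. The comparison and the 47 lists (1756 genes) were chosen with earlier results of these data known. Alternatives were other floors, log2 of the signal plus 32, other ways to join probe sets, quantile normalization, centring and other filters.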

Additional observations from a re-analysis of the deposited data

How the results depend on the processing

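With 1 array per culture no spread between cultures can be given, and signals near the floor limit how far low genes can be read. No paired analysis was possible because each region has 1 array and the shared replicate number 1 gives a single pair. Of the 287 called genes named in the text, 285 kept their 2-fold side after centring (not Aqp4 and Pfkm), 281 after quantile normalization (not Col1a2, Fos, Igfbp4, Mki67, Mmp2 and Timp3), 279 with log2 of the signal plus 32 (not Aqp4, Cxcl2, Eng, Mki67, Mmp2, Pfkm, Rpl37 and Vegfc), 254 with the mean over probe sets and 221 of 272 with a floor at the 70th percentile, which narrows the difference of any gene with a signal below it. The counts of 541 and 753 became 334 and 363 with a floor at the 70th percentile, and the hippocampal count became 1292 at the 30th percentile and 439 when only genes above the floor on both arrays were kept (then 425 in the mesencephalic direction). For the astrocyte median of -1.42, the values were -1.85 at the 30th percentile, -1.05 at the 70th, -1.02 over genes in 1 list only, -1.07 with the mean over probe sets, -1.03 without the filter, -1.70 with log2 of the signal plus 32 and -1.05 above the floor on both arrays. The microglial median of -2.97 became -4.60, -2.10, -2.63, -2.66 and -4.15 at the 30th and 70th percentiles, with the mean over probe sets, without the filter and with the signal plus 32. The fibroblast median of 1.27 became 0.83 at the 70th percentile, 1.65 over genes in 1 list only, 1.05 with the mean over probe sets, 0.83 as a mean over members and 0.83 without the filter. The interferon median was 1.64 at the 70th percentile. The telencephalic median was -1.26 with the mean over probe sets and 0.00 without the filter. The midbrain median of 0.45 was 1.01 at the 30th percentile, 0.66 over genes in 1 list only, 0.80 as a mean over members, 0.00 without the filter, 1.71 with the signal plus 32 and -0.0056 above the floor on both arrays. The chemokine median of 1.03 was 0.76 as a mean over members, 0.00 without the filter and 2.16 above the floor on both arrays. Leaving out probe sets that can read several transcripts (suffixes _s_at, _x_at and _a_at), an alternative chosen after seeing the data, gave -1.66 for the astrocyte, 1.33 for the chemokine and 1.38 for the midbrain median. The endothelial median over 3 genes turned to -0.97 at the 70th percentile, -2.54 over genes in 1 list only, -0.12 as a mean over members and -0.74 without those probe sets. Mcm2 turned to -0.20 with the probe set chosen over the 2 arrays and without those probe sets, Tpm2 to -0.37 without them, and H2-D1 to -0.48 with the mean over probe sets. The insulin-like growth factor median of -0.02 was 0.01 after centring and 0.10 after quantile normalization, and over members above the floor on both arrays the growth factor median was -0.14 and the cytokine median -0.22. The causes were not tested.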

Other observations

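Genes on none of the 47 lists made up 291 of the 541 called higher in the mesencephalic culture and 526 of the 753 called higher in the hippocampal culture; those named here were chosen after their values were seen. Towards the mesencephalic culture, the serine protease granzyme E gene Gzme read 1721 against 17.7 (at least 14.1-fold), Cavin2, a coat protein of caveolae, 4112 against 325 (12.6-fold) and the guanylate-binding protein gene Gbp6 2481 against 238 (10.4-fold). The prostacyclin synthase Ptgis read 1736 against 214 (8.1-fold), beside Ptgs2 and Ptges on the same side. The opioid precursor Penk read 812 against 2.8 (at least 6.65-fold, mesencephalic higher), the aryl hydrocarbon receptor Ahr 1735 against 288 (6.01-fold), the basic leucine zipper factor Nfil3 1992 against 222 (8.96-fold) and the serum and glucocorticoid-induced kinase Sgk1 6799 against 1296 (5.25-fold).

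Towards the hippocampal culture, Ntrk2, the receptor of Bdnf, read 3787 against 341 (11.1-fold), opposite in side to its ligand. The nuclear long non-coding RNA Neat1 read 3986 against 368 (10.8-fold, hippocampal higher). Mmd2 (1338 against 41.7, at least 11-fold, hippocampal higher) and the secreted C1q-like protein C1ql3 (1409 against 133, 10.6-fold) were also higher, with C1ql3 at 2594 in the subventricular zone. The macrophage scavenger receptor Marco read 2169.7 against 2.7 (at least 17.8-fold, hippocampal higher), the C-type lectin Clec4e 1289 against 19.9 (at least 10.6-fold), the microglial Fc receptor-like gene Fcrls 1301 against 13.4 (at least 10.7-fold) and the itaconate-making enzyme Acod1 2264 against 256 (8.85-fold). The first 3 of these were below the floor in the mesencephalic culture, as most microglia markers were. The sialyltransferase St8sia2, which adds polysialic acid, read 864 against 17.2 (at least 7.07-fold, hippocampal higher), and the sorting receptor Sorl1 1402 against 176 (7.95-fold).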
